A study of Mus musculus with 9 samples.

Results

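The genes of mouse chromosome 5 were followed in their order along the chromosome in an RNA-seq comparison of 2 epithelial lines. A gene was counted as a member if both count tables placed all of it on chromosome 5 and if its mean over the 9 libraries was at least 5 CPM (counts per 1000000 counts of the library), so members were chosen by measured levels. Of 1308 chromosome 5 rows, 621 fell under that minimum, 186 of them without a count, and 18 more were left out because they belong to gene groups set aside by name. The 669 members came from 23366 genes in the tables, of which 10518 reached the same minimum. Just outside the minimum were *Paqr3* at 4.81 CPM and *Msi1* at 4.84 CPM, with shifts of -1.55 and -3.27, and just inside were *Hvcn1* at 5.20 CPM and *Lnx1* at 5.26 CPM, with shifts of -0.55 and -1.12 on the log2 scale defined below. The chromosome was taken up with its difference between the lines already known, so every value of mSGc against IMOK is given as a description and carries no test of the chromosome.

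mSGc cells grew out of submandibular glands of adult male C57BL/6 mice and became immortal without a transgene. There were 6 mSGc libraries, 1 for each of passages 2, 4, 10 and 25 in progenitor medium and 1 for each of passages 10 and 25 in differentiating medium. IMOK are immortalised mouse oral keratinocytes, also labelled C57BL/6, grown in their own medium at an early passage, with 3 replicate libraries. Of the members, 24 had a mean under 5 CPM in mSGc and 11 in IMOK, and 664 had a count in all 9 libraries. No knockout or drug separated the groups. Line, medium, origin and the levels of *Xist* and Y-linked genes, given below, changed together between mSGc and IMOK and cannot be told apart. Each mSGc condition had 1 library, so p-values measure only the spread between these libraries.

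The mammalian autosomes hold many genes with no shared function, and their order is largely a record of genome history rather than of regulation. Mouse chromosome 5 carries housekeeping genes such as *Actb* and *Rplp0*, single subunits of many large complexes, and a few tight clusters of secreted salivary and mucosal proteins. In cultured epithelial cells many of its active genes are of the housekeeping kind. In bulk RNA, fewer cells that express a gene and less RNA per cell cannot be told apart.

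Total counts ran from 6237884 to 18444963 per library, and the passage 25 library in differentiating medium was the shallowest. Summed over 5 epithelial markers, the level was 9134 to 19411 TPM (transcripts per 1000000, scaled by gene length) in mSGc and 8757 to 9516 TPM in IMOK. The 5 mesenchymal markers summed to 0.268 to 18.9 TPM in mSGc and 0.980 to 6.28 TPM in IMOK, the 3 endothelial markers stayed at or below 0.869 TPM, and *Cd52* was at 0 in all 9 libraries among 3 leukocyte markers. Of 4 acinar markers, *Aqp5*, a water channel, had 1.40 to 20.9 TPM in mSGc and 72.9 to 213 TPM in IMOK, while the ranges of *Amy1*, *Bhlha15* and *Prol1* overlapped between the lines. *Xist*, the RNA of the inactive X chromosome, was at 86.7 to 160 TPM in IMOK and at most 0.124 TPM in mSGc, and 4 Y-linked genes summed to 45.3 to 133 TPM in mSGc and at most 0.0656 TPM in IMOK. IMOK replicate 1 had the widest spread of the IMOK libraries. The middle 50% of genes on the other autosomes lay between -0.30 and 0.32 of the IMOK mean in replicate 1. In replicate 3 they lay between -0.23 and 0.21, and in replicate 2 between -0.13 and 0.13.

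The stretches of promoter printed here show the members on which the exceptions below turn, read from the NCBIM37 reference genome, which is the mm9 build of the files. The first is the whole interval between the starts of *Dhx15* and *9230114K14Rik*, which are read in opposite directions, and it is printed on the plus strand (chr5:52581759-52581919). The next pair gives the 250 bases before *Evc2* on the plus strand (chr5:37729467-37729716) and before *Evc* on the minus strand (chr5:37728121-37728370), neighbours that were both higher in mSGc. *P2rx7* (chr5:123093670-123093919) and *Atp10d* (chr5:72594318-72594567), both on the plus strand, had the smallest adjusted p among the 5 higher and the 5 lower members named by rule. Capitals mark a GC box (GGGCGG) or a CCAAT box (CCAAT) on either strand.
Dhx15 and 9230114K14Rik: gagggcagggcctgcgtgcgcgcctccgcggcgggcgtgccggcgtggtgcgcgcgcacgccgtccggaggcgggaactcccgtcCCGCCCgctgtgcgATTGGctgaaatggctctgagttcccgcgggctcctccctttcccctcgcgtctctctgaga
Evc2: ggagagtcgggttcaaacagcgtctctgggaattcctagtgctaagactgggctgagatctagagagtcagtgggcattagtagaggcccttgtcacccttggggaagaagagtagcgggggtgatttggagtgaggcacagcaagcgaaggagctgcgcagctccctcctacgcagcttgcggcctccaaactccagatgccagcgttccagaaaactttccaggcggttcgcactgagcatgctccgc
Evc: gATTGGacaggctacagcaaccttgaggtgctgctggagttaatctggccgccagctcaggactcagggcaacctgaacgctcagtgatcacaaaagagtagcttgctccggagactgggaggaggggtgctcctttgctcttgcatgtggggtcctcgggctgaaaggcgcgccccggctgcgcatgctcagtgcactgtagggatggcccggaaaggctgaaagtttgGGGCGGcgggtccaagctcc
P2rx7: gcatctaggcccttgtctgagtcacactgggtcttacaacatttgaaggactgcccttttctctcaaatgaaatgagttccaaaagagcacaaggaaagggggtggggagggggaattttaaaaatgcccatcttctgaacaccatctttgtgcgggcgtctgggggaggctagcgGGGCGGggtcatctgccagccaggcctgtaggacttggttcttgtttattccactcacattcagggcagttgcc
Atp10d: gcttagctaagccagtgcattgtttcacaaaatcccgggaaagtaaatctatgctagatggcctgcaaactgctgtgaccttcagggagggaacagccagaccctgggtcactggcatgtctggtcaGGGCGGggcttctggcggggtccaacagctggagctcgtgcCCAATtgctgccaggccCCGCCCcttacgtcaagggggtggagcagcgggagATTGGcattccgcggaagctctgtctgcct

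The stretch shared by *Dhx15* and *9230114K14Rik* was 161 bases long with 1 GC box and 1 CCAAT box, and 73.9% of its bases were G or C. The interval between *Evc* and *Evc2* was 1596 bases. Over all members, 66.1% held a GC box in the 250 bases before the start and 30.9% a CCAAT box, against 63.9% and 36.3% of 9510 genes on the other autosomes at the same minimum level. A TATA box (TATAAA) was found before 5.08% of members and 5.74% of the others, the E-box CACGTG before 9.42% and 8.70%, and the cyclic AMP response core TGACG before 30.5% and 28.7%, each counted on both strands. The median number of CG dinucleotides in these bases was 18 in members and 17 in the others. A match of letters is not a bound site.

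For each gene the shift was the log2 of its CPM plus 1 in a library, minus the mean of the same value over the 3 IMOK libraries, centred so that the median gene of the other autosomes stood at 0. The median member was lower in every mSGc library than in any IMOK library. Its shift was -0.54 at passage 2, -0.56 at passage 4, -0.61 at passage 10 and -0.54 at passage 25 in progenitor medium. In differentiating medium it was -0.56 at passage 10 and -0.67 at passage 25. In the IMOK libraries it was -0.062, 0.015 and 0.045. The mSGc mean of -0.58 ± 0.051 (SD, n = 6) was 66.9% of the IMOK level, with single libraries between 1.45-fold and 1.59-fold lower. The spread among the mSGc libraries was about that of the IMOK libraries (SD 0.055, n = 3), and the groups did not overlap.

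Members as a group also took a smaller part of each library. They held 5.46% ± 0.228 (SD, n = 6) of all counts in mSGc and 7.98% ± 0.427 (SD, n = 3) in IMOK. Between 554 and 607 of the 669 members lay below 0 in a given mSGc library, or 82.8% to 90.7%, where centring puts 50% of genes elsewhere. In IMOK replicates 1, 2 and 3 the numbers were 371, 318 and 291. Leaving out IMOK replicate 1 moved the 6 library shifts to between -0.71 and -0.56.

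**Figure D1:**
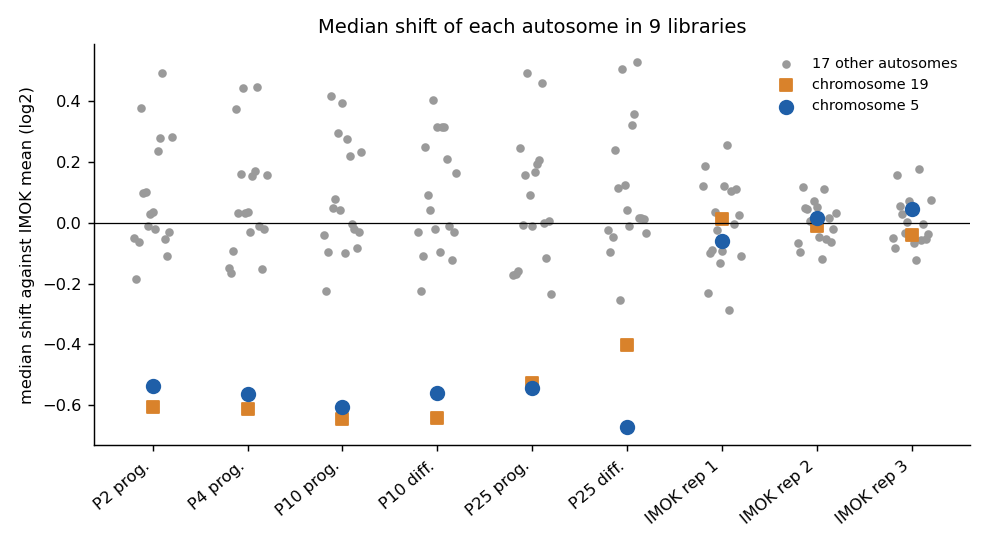
Median shift of each autosome against the IMOK mean (log2, vertical axis) in the 6 mSGc and 3 IMOK libraries; blue points are chromosome 5, orange squares chromosome 19 and grey points the 17 other autosomes. In mSGc, chromosome 5 lies between -0.67 and -0.54 and only chromosome 19 lies near it, while in IMOK both stand near 0.

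Of the other 18 autosomes, chromosome 19 with 376 genes came closest. Its median shift was the lowest of all in the libraries of passages 2 and 4 and in both of passage 10, between -0.64 and -0.61. At passage 25 it was -0.53 in progenitor and -0.40 in differentiating medium, where chromosome 5 was the lowest autosome. Chromosome 2 was also below IMOK in every mSGc library but by less, between -0.23 and -0.0979, and its lowest IMOK replicate was at -0.0972. Chromosome 4 was above IMOK in each mSGc library, with a median of 0.31. The remaining autosomes overlapped IMOK. Among them, chromosomes 8 and 14 had higher mSGc medians than chromosome 4, at 0.42 and 0.45. They overlapped through their lowest mSGc library alone, at -0.012 for passage 2 and -0.0035 for passage 10 in progenitor medium.

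The lower level was spread over most members rather than carried by a few. Taking each member's median over the 6 mSGc libraries, 599 were below 0 and 70 above it. The middle 50% of members lay between -0.87 and -0.30, a width of 0.57, and that of genes elsewhere between -0.35 and 0.34, a width of 0.69. A shift between -1 and -0.3 was found in 388 members, or 58.0%, against 21.1% of genes elsewhere. Another 115 members (17.2%, against 6.91%) were below -1, and 125 members (18.7%, against 44.6%) lay within 0.3 of 0. Shifts of 0.3 to 1 were found in 23 members (3.44%, against 20.5%) and shifts above 1 in 18 (2.69%, against 6.86%).

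**Figure D2:**
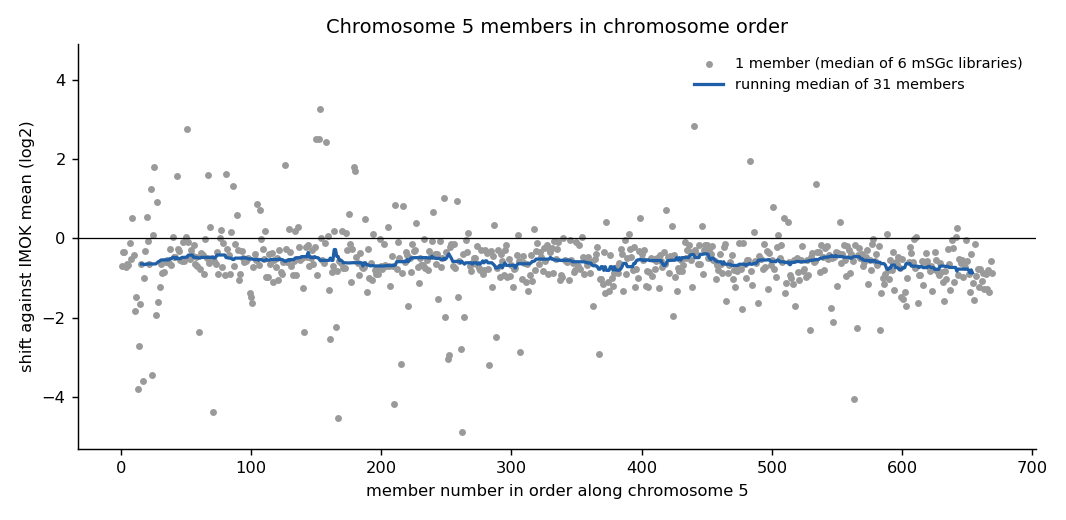
Shift of each of the 669 members against the IMOK mean (log2, vertical axis; median of the 6 mSGc libraries) in chromosome order, with each grey point 1 member and the blue line the running median of 31 members. The line stays between -0.87 and -0.28 from end to end, while single members range on both sides of it.

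The running median over 31 consecutive members never reached 0 along the chromosome. It was highest, at -0.28, around the member starting at position 43624702 and lowest, at -0.87, around the member starting at 147828231. The longest run of consecutive members above 0 was 3, from *Evc* and *Evc2*, which encode a pair of ciliary proteins of Hedgehog signalling, to *Stx18*, a SNARE protein of the endoplasmic reticulum, which stood only just above 0. Across neighbours the rank correlation of shifts was 0.017 (668 neighbouring pairs, which share libraries and often sequence context), within the range of -0.012 to 0.33 on the other autosomes.

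Members that start close together in opposite directions were compared next. In 47 such pairs with starts within 1000 bases the median absolute difference in shift was 0.44, and between neighbouring members it was 0.48. In 41 of the 47 pairs both members were below 0. The largest difference of the 47, picked for its size, sat on the 161 bases printed first. *Dhx15*, a splicing helicase read leftward, had 139, 161 and 191 TPM (lowest, median and highest of 6) in mSGc and 135, 254 and 326 TPM in the IMOK replicates, with a shift of -0.26. *9230114K14Rik*, read rightward, had 3.31, 9.23 and 14.3 TPM in mSGc and 2.71, 2.68 and 1.83 TPM in IMOK, with a shift of 1.79. The 2 genes thus differed by 2.05 in log2 shift over 1 short interval. *9230114K14Rik* averaged under 5 CPM in IMOK and became a member through mSGc alone, so a high shift was built into its choice.

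The lower level was also present in nearly every region when the chromosome was cut into windows. Of 16 windows of 10 Mb, 14 held at least 10 members, and in 13 of these every mSGc library was below every IMOK library. No window was above. Over all autosomes 12.2% of such windows were wholly below IMOK and 11.7% wholly above. On chromosome 5 the share was 92.9%, and nothing is read from it, since the contrast chose the chromosome. On the other autosomes 15 of 216 windows were wholly below, made up of 6 of 6 on chromosome 19, 5 of 18 on chromosome 2 and 4 of 18 on chromosome 1. The 4 on chromosome 1 were consecutive, with mSGc medians of -0.49, -0.51, -0.56 and -0.71. Those on chromosome 2 lay between -0.34 and -0.21. Of the 216 windows, 11 were at or under the highest chromosome 5 window median of -0.39, 6 of them on chromosome 19.

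**Figure D3:**
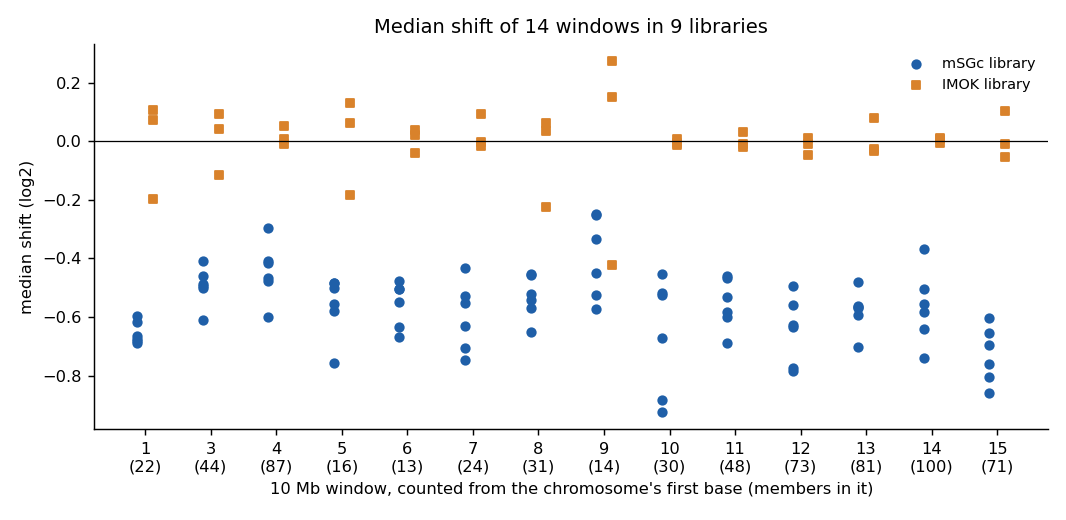
Median shift of the members (log2, vertical axis) in each of the 14 windows of 10 Mb with at least 10 members, numbered from the chromosome's first base with the number of members in brackets; blue points are the 6 mSGc libraries and orange squares the 3 IMOK libraries. The groups are apart in 13 windows and overlap in the window numbered 9, where IMOK replicate 1 is at -0.42.

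Over the windows with at least 10 members, the window medians of mSGc ran from -0.73 to -0.39 with an SD of 0.087. The 2 smaller windows were further out, with a median of -0.32 over 7 members from 10 to 20 Mb, where the lines overlapped, and -1.05 over the 8 members past 150 Mb, where all 8 were below 0. The lowest of the 14 was the window from 140 to 150 Mb, where 68 of 71 members were below 0 and the libraries lay between -0.86 and -0.60. Its most abundant members did not carry that value. *Actb*, cytoplasmic beta actin, stood at 663, 1524 and 2827 TPM in mSGc and at 1817, 1509 and 1895 TPM in IMOK, with a shift of 0.039. *Arpc1b*, a subunit of the actin-branching ARP2/3 complex, stood at 373, 406 and 499 TPM in mSGc and 776, 754 and 671 TPM in IMOK, a shift of -0.64. *Rpl21*, a ribosomal protein, had a shift of -0.045.

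The highest of the 14 was the one from 80 to 90 Mb, with 14 members, and it was the window in which the lines overlapped. Its mSGc libraries lay between -0.57 and -0.25, and the IMOK replicates at -0.42, 0.15 and 0.27. Without IMOK replicate 1 all 14 windows were wholly below IMOK. Housekeeping members of the window were low in mSGc in the ordinary way: *Grsf1*, an RNA-binding protein of mitochondria, had 64.7, 77.2 and 85.9 TPM against 126, 146 and 154 TPM in IMOK, while *Utp3*, of the small ribosomal subunit processome, and *Ythdc1*, a reader of methylated RNA, had shifts of -0.22 and -0.35. The secreted and mucosal genes of the window were described after their values were seen, so the contrast with housekeeping members is a description only. *Smr3a*, a salivary peptide gene, was listed at 0 in 5 mSGc libraries and at 3.86 TPM at passage 4, and in IMOK it was at 0, 71.7 and 81.3 TPM. *Prol1*, of the same kind, had 60.0 TPM at passage 4, at most 0.101 TPM in the other mSGc libraries, and 0, 47.4 and 30.5 TPM in IMOK. *Tmprss11e*, a membrane serine protease of stratified epithelium, had at most 4.94 TPM in mSGc and 1.45, 45.7 and 51.4 TPM in IMOK. *Smr3a* became a member through IMOK alone, so a drop in mSGc was built into its choice. The same may hold for *Tmprss11e*, whose high values were all in IMOK. In *Smr3a* and *Tmprss11e* IMOK replicate 1 stood with mSGc and not with the other IMOK libraries. In *Prol1* it stood with the mSGc libraries other than passage 4, which was the highest of all 9 libraries.

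The member with the highest mean TPM in each window gave values that rest on many counts, except *Mir5109* with 72 to 297 counts per library. From the first base on, *Cyp51* of sterol synthesis had a shift of 0.51, the proteasome ATPase *Psmc2* -0.27, *Mrfap1* -0.64, the aminopeptidase *Lap3* 0.18 and *Dhx15* -0.26. Further along came *Rpl9* at -0.025, the purine enzyme *Paics* at -0.45, *Utp3* at -0.22, *Anxa3*, a calcium-dependent membrane-binding annexin, at -0.31, *Rpl5* at -0.35, *Rplp0* at -0.23 and *Rpl6* at -0.34. The small heat shock protein *Hspb1* was at 1.38 and *Actb* at 0.039. In the 2 windows with under 10 members, *Mir5109* was at 0.91 on a model of 87 bases, and *Hsph1*, a large chaperone, at -0.87. Of these 16 members 5 were above 0, *Mir5109* among them, and 13 stood nearer to 0 than the median of their window.

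Within mSGc the windows varied modestly, with a median range over the 6 libraries of 0.26, against 0.34 on the other autosomes. The window from 90 to 100 Mb was lowest in both passage 25 libraries, at -0.88 and -0.92, where the 4 earlier libraries lay between -0.67 and -0.45. Passage 25 in progenitor medium was the highest library in the window from 30 to 40 Mb, at -0.30, and in that from 130 to 140 Mb, at -0.37, where passage 25 in differentiating medium was the lowest at -0.74. Those differences rest on 1 library each and were not tested.

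Level, base composition and strand separated members little, and gene size more. Members in the lowest, middle and highest tertile of mean level had median shifts of -0.58, -0.58 and -0.56. By exonic GC the tertiles were at -0.59, -0.59 and -0.56, and by strand members stood at -0.57 on plus and -0.58 on minus. Members with longer exons were lower, at -0.53, -0.56 and -0.67 from the shortest tertile to the longest, and the same order held for genes elsewhere, at 0.085, -0.0082 and -0.085. By gene span the members were at -0.48, -0.58 and -0.67 and genes elsewhere at 0.072, -0.0093 and -0.075, so the gap between them was of like size in each tertile.

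Families of genes whose members are scattered over the genome were compared next, with the 10 families picked after the members' values had been seen. The comparison reuses the shifts for which the chromosome was taken up, so it is a description and not independent support. In each of the 10 the median of the chromosome 5 members was below the median of the members of the same family on other autosomes. The smallest difference was -0.041, the largest -0.68 and the median -0.48. In all, 29 of 33 members were below the median of their relatives elsewhere, beside 89.5% of all 669 members below 0.

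**Figure D4:**
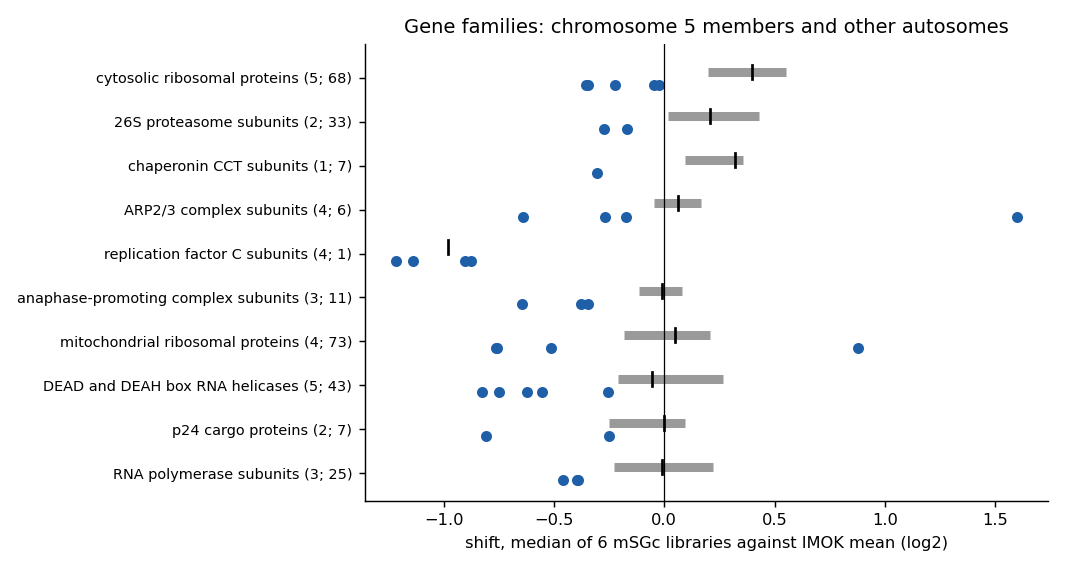
Shift (log2, horizontal axis; median of 6 mSGc libraries against the IMOK mean) of 10 gene families, with blue points the chromosome 5 members, grey bars the middle 50% of family members on other autosomes and black ticks their median; the numbers in brackets count members on chromosome 5 and elsewhere. The 5 ribosomal protein genes of chromosome 5 lie at or below -0.025 where 68 elsewhere have a median of 0.40, and *Actr3b* at 1.60 and *Mrpl33* at 0.88 lie far to the right of their families.

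The cytosolic ribosomal proteins, the core of the translation machinery, were the family with the most genes on chromosome 5 alongside the RNA helicases. The 68 genes elsewhere had a median shift of 0.40, with the middle 50% between 0.20 and 0.55. On chromosome 5 *Rpl9* was at -0.025, *Rpl21* at -0.045, *Rplp0* at -0.23, *Rpl6* at -0.34 and *Rpl5* at -0.35. *Rplp0*, the stalk protein, had 3441, 4177 and 5138 TPM (lowest, median and highest) in mSGc and 5475, 5411 and 5419 TPM in IMOK. All 5 lay below the lower quartile of the others, a difference of -0.62 between the medians. Ribosomal protein genes have many processed copies, and how reads shared with them were counted is not given in the sources used here.

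Most other complexes followed the same order, each with exceptions given here. *Cct6a*, a subunit of the chaperonin that folds actin and tubulin, was at -0.31 and its 7 partners elsewhere at a median of 0.32. The proteasome members *Psmc2* and *Psmd9* were at -0.27 and -0.17 and 33 subunits elsewhere at 0.21. *Arpc3*, *Arpc1a* and *Arpc1b* were at -0.17, -0.27 and -0.64, and 6 other ARP2/3 subunits elsewhere had a median of 0.064, but *Actr3b*, a variant subunit of the complex, was at 1.60. The RNA polymerase subunits *Polr2b*, *Polr1d* and *Polr2j* were at -0.39, -0.40 and -0.46 and 25 others at -0.011. In replication factor C, the clamp loader of DNA replication, the picture differed: *Rfc3*, *Rfc1*, *Rfc2* and *Rfc5* were at -0.87, -0.90, -1.14 and -1.22, and the single subunit elsewhere was as low, at -0.98. *Mrpl33* of the mitochondrial ribosome was at 0.88, above its relatives, while *Mrps18c* was at -0.51 and *Mrpl1* and *Mrps17* were both at -0.76, against 0.047 for 73 genes elsewhere.

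Gene by gene, edgeR's quasi-likelihood test over all genes called 203 members lower in mSGc and 14 higher at a Benjamini-Hochberg adjusted p under 0.05, or 30.3% and 2.09% of 669. Over all 12885 genes tested, 8.3% were called lower and 6.58% higher. Since the chromosome was taken up for this contrast, nothing is read from those counts. The fitted log2 fold change had a median of -0.55 over members and 0.0023 over all genes, and 587 members were negative. After centring, all 6 mSGc libraries were below all 3 IMOK libraries in 271 members (40.5%) and above them in 16 (2.39%), where the shares among 10518 genes were 11.5% and 9.08%. The call of lower members fell to 82 without IMOK replicate 2 and to 106 without IMOK replicate 3, and that of higher members to 6 in each case. The lower calls were then 12.3% and 15.8% of members and 3.50% and 4.67% of all genes. The higher calls were 0.897% of members in each case and 2.11% and 2.47% of all genes. The counts over all genes thus fell as well.

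The 5 lower members named here had the largest fold changes among those called, without overlap and with at least 10 TPM in at least 2 libraries. *Lmbr1*, *A330021E22Rik*, *Bst1* and *Pcolce* were under 5 CPM in mSGc and became members through IMOK alone, so a large drop was built into their choice. *Lmbr1*, a membrane protein gene, had 0, 0.0706 and 0.573 TPM (lowest, median and highest) in mSGc and 12.3, 11.2 and 8.30 TPM in IMOK, a log2 fold change of -5.60 ± 0.94 (SE; adjusted p = 0.00435, edgeR). *A330021E22Rik* fell by 5.36 ± 0.75 on the same scale (edgeR adjusted p = 0.00185). *Bst1*, an ADP-ribosyl cyclase of the cell surface, had 0, 1.55 and 4.13 TPM in mSGc and 113, 48.9 and 42.1 TPM in IMOK, with a fold change of -4.99 ± 0.79 (edgeR adjusted p = 0.00333). *Pcolce*, an enhancer of procollagen processing, had 1.13, 2.24 and 4.52 TPM in mSGc and 68.4 ± 27.9 TPM (SD, n = 3) in IMOK. *Atp10d*, a lipid flippase, had 6.42, 8.27 and 11.1 TPM in mSGc and 54.2, 108 and 115 TPM in IMOK, a fold change of -3.27 ± 0.28 (edgeR adjusted p = 0.000109). In all 5 the lines did not overlap, as the rule required.

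Of the 14 members called higher, 11 started in the first 53 Mb, a limit set after seeing them, where 180 of the 669 members start. Of the higher members described, *P2rx7*, *Evc*, *C130083M11Rik* and *9230114K14Rik* averaged under 5 CPM in IMOK and became members through mSGc alone. *P2rx7*, an ATP-gated ion channel, had 9.15, 12.6 and 17.7 TPM in mSGc and 2.57, 1.38 and 0.972 TPM in IMOK, higher by 3.16 ± 0.33 on the log2 scale (edgeR adjusted p = 0.000382). *Evc2* had 11.3, 19.5 and 25.1 TPM in mSGc and 0.114, 3.75 and 4.10 TPM in IMOK, 3.07 ± 0.82 (edgeR adjusted p = 0.0324). Its neighbour *Evc* had 6.01, 9.69 and 16.4 TPM in mSGc and 0.0272, 3.74 and 2.75 TPM in IMOK, 2.43 ± 0.93, and did not pass the test (edgeR adjusted p = 0.108). Both genes were near 0 in IMOK replicate 1, with 1 and 4 counts for *Evc* and *Evc2*, where the other IMOK replicates had 133 and 135 counts for *Evc2*.

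*Ppp2r2c*, a regulatory subunit of protein phosphatase 2A, had 28.7, 52.1 and 86.7 TPM in mSGc and 17.2, 9.06 and 6.96 TPM in IMOK. *Atg9b*, an autophagy membrane protein, had 27.7, 116 and 148 TPM in mSGc and 11.3, 26.8 and 19.7 TPM in IMOK, with passage 25 in differentiating medium the lowest. *C130083M11Rik*, next to *9230114K14Rik*, had 3.18, 7.50 and 12.0 TPM in mSGc and 2.32, 2.30 and 1.26 TPM in IMOK. Among abundant members, *Hspb1* had 753, 1517 and 2277 TPM in mSGc and 678, 785 and 608 TPM in IMOK, and its lowest mSGc value was under the highest IMOK value before centring.

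Grouped by role, the listed members had medians between -0.80 and -0.34, beside -0.58 for all members. The lists were drawn up with results known, and beside each count called lower stand the 30.3% of all members and the 8.3% of all genes. The 36 listed members for the ribosome, RNA processing and purine synthesis were below 0, with a median of -0.55, but the list leaves out *Mrpl33* at 0.88. Of them 7 (19.4%) were called lower, among them the splicing factor *Srsf9* and the helicases *Ddx55* and *Dhx37*. All 32 members for the cell cycle and genome maintenance were also below 0, with a median of -0.69, but 2 (6.25%) were called: *Rfc1*, at 37.9, 43.9 and 55.9 TPM in mSGc and 68.4, 113 and 108 TPM in IMOK, and the Mediator kinase *Cdk8*. The chromatin protein *Hmgb1* had 310, 391 and 459 TPM in mSGc and 368, 1005 and 1069 TPM in IMOK, so that IMOK replicate 1 stood inside the mSGc range.

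The list of actin, adhesion and associated genes had a median of -0.80 over 19 members, with 8 (42.1%) called lower and none higher. It also holds genes of membrane traffic, such as *Tmed2* and *Rilpl1*, both among those called. *Limk1*, which phosphorylates cofilin, had 4.98 to 8.31 TPM in mSGc and 28.6 ± 7.99 TPM (SD, n = 3) in IMOK, a log2 fold change of -1.79 ± 0.22 (edgeR adjusted p = 0.00106). The GTPase *Rac1*, the focal adhesion adaptor *Pxn* and *Git2* were also called lower, at -0.79, -0.86 and -1.30, whereas *Actb* and *Arpc3* did not pass the test. Of 23 signalling members, with a median of -0.56, 5 (21.7%) were called lower and 1, *P2rx7*, higher. *Pdgfa*, a growth factor for mesenchymal cells, had 59.9, 105 and 135 TPM in mSGc and 338, 298 and 288 TPM in IMOK (-1.38 ± 0.23, edgeR adjusted p = 0.00406). The guidance ligands *Sema3a* and *Sema3c* were called lower too. *Sema3a* averaged under 5 CPM in mSGc and became a member through IMOK alone, so a drop was built into its choice. *Igfbp7*, a secreted binder of insulin-like growth factors, did not pass, with 297 TPM at passage 4 and 6.83 TPM at passage 25 in differentiating medium.

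Transcription and chromatin members had a median of -0.47 over 36 genes, 9 of them (25%) called lower and none higher. *Cux1*, a homeodomain factor, had 14.7, 18.2 and 24.8 TPM in mSGc and 90.6, 72.6 and 65.8 TPM in IMOK (-1.78 ± 0.16, edgeR adjusted p = 0.000163), and the chromatin remodeller *Baz1b* and the Notch effector *Rbpj* were called at -0.96 and -0.70. The 22 chaperone and protein handling members had a median of -0.34, with 5 (22.7%) called lower and 2 called higher, *Hspb1* among them. Over the 18 sterol and lipid members the median was -0.35, with 3 (16.7%) called lower and none higher. *Cyp51*, with 165, 210 and 313 TPM in mSGc and 67.6, 211 and 309 TPM in IMOK, and *Insig1*, which holds back sterol synthesis, had positive fold changes within the spread of IMOK. The 9 members with mitochondrial roles had a median of -0.37, and 3 (33.3%) were called lower: the cytochrome oxidase assembly factor *Cox18* at -1.50, *Coq5* of ubiquinone synthesis at -1.33 and the mitochondrial translation factor *Mtif3* at -0.83.

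Passage and medium within mSGc were not used in the choice of the chromosome, and few genes anywhere passed for either. Over members the median fitted slope was -0.0080 per doubling of passage number, and the median difference of differentiating from progenitor medium was -0.076, against 0.0032 and -0.014 over all genes tested. The median for medium was -0.15 without passage 10 in differentiating medium and 0.016 without passage 25 in progenitor medium, so its size and sign rest on single libraries. Of 667 members tested, 1 passed for passage and 0 for medium in edgeR at an adjusted p under 0.05, where 0.49% and 0.0241% of 12451 genes passed. At an unadjusted p under 0.05 there were 61 members (9.15%, against 13.2% of all genes) for passage and 40 (6.00%, against 8.18%) for medium. DESeq2 called 20 members (3.0%, against 5.62%) for passage and 13 (1.95%, against 2.18%) for medium. With limma voom 1 member was called for passage, where 10 of all 12451 genes were called higher and 65 lower. For medium it called 0 members and 0 genes.

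**Figure D5:**
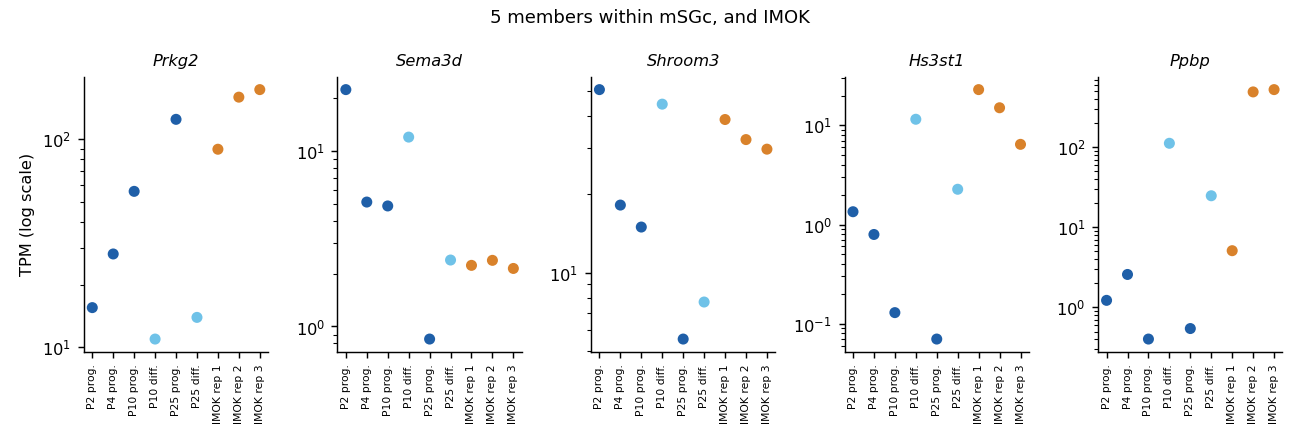
TPM (vertical axes, log scale) of 5 members in the 9 libraries, with dark blue mSGc in progenitor medium, light blue mSGc in differentiating medium and orange IMOK. *Prkg2* rises from 15.5 to 125 TPM over the 4 progenitor libraries, and *Hs3st1* and *Ppbp* are highest among mSGc in the passage 10 library in differentiating medium.

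The member that passed was *Prkg2*, a membrane-bound cGMP-dependent protein kinase. In progenitor medium it had 15.5 TPM at passage 2, 28.1 at passage 4, 56.1 at passage 10 and 125 at passage 25, in differentiating medium 10.9 and 13.9 TPM at passages 10 and 25, and in IMOK 89.5, 159 and 173 TPM. The rise was 0.82 ± 0.095 (SE) on the log2 scale per doubling of passage (edgeR adjusted p = 0.0382). Its difference between media was -2.87 ± 0.29 and missed the threshold (edgeR adjusted p = 0.0628). The passage call was lost without the library of passage 2, of passage 4 or of passage 25 in progenitor medium, when 0 members passed as higher.

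Of the members with the next smallest p, *Sema3d*, a secreted semaphorin, had 22.4, 5.12, 4.87 and 0.848 TPM in progenitor medium from passage 2 to passage 25, 12.0 and 2.39 TPM in differentiating medium and 2.14 to 2.38 TPM in IMOK, a slope of -1.15 ± 0.17 that missed the threshold (edgeR adjusted p = 0.0517). *Shroom3*, which drives apical constriction, had 50.4, 18.2, 14.9 and 5.55 TPM in progenitor medium and 44.3 and 7.70 TPM in differentiating medium, also short of the threshold (edgeR adjusted p = 0.0727). For medium, *Ppbp*, a platelet-type chemokine, had 0.403 to 2.58 TPM in the 4 progenitor libraries, 112 and 24.8 TPM in differentiating medium and 5.11, 490 and 524 TPM in IMOK, and *Hs3st1*, a heparan sulfate sulfotransferase, had 0.0698 to 1.35 TPM, then 11.5 and 2.27 TPM, and 23.0, 15.1 and 6.44 TPM in IMOK. Neither passed (edgeR adjusted p = 0.0663 for both), although in each gene both differentiating libraries were above all 4 progenitor libraries.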

How the data were processed

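RNA was sequenced from 6 mSGc and 3 IMOK libraries. The authors deposited raw read counts per gene from featureCounts 1.5.1 after alignment to mm9 with TopHat2 2.1.1 and Bowtie2 2.2.6 (per the labels), without normalization. The annotation, the use of strand and the handling of reads shared by several genes are not given in the sources used here, so 50 members that overlap another on the opposite strand cannot be told apart from it. The labels name the media progenitor and differentiating, while the study's methods name a serum-free and a serum-containing medium, and nothing pairs these names. Total counts per library were 6237884 to 18444963. CPM and TPM were computed here from the counts and the deposited gene lengths, with a pseudocount of 1 CPM for log2 values. Shifts were centred on the median of 9510 autosomal genes off chromosome 5. edgeR 4.0.16 (R 4.3.3; TMM, filterByExpr, quasi-likelihood test, Benjamini-Hochberg over all genes) tested the line over all 9 libraries, and log2 passage with medium over the 6 mSGc libraries. DESeq2 1.42.0 and limma 3.58.1 were alternatives. The procedures were tested on simulated data. Each 10 Mb window needed at least 10 members. Promoter sequences were read from NCBIM37, on which chromosome 5 has 152537259 bases, and the exon lengths of all 11842 gene models compared equalled the deposited lengths. Members and lists were chosen with earlier results of these data known. Named by rule were the most abundant member of each window, the 5 largest called changes per direction with at least 10 TPM in 2 libraries and no overlap, the members with the smallest p for passage and medium, the 3 most abundant members of the highest and lowest window, and the most abundant members of each list. Others were chosen after their values were seen. The values of 1 member are not reported here.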

Additional observations from a re-analysis of the deposited data

Results flagged for a closer look

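Among 73 quantities examined over the 6 mSGc libraries, 3 had 1 library far from the other 5 by Dixon's ratio, where chance gives about 1 in 20. *Ppbp* was at 112 TPM in the passage 10 library in differentiating medium, and the next highest was 24.8 TPM. *Hs3st1* was at 11.5 TPM in the same library, and the next was 2.27 TPM. The window from 40 to 50 Mb, with 16 members, was at -0.76 at passage 2 in progenitor medium, and the next lowest library was at -0.58.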

How the results depend on the processing

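All 72 values of the 6 library shifts under 12 alternatives, 1 of them (genes matched for exonic GC and length) added after the data were seen, were below 0, from -0.71 to -0.47, and 67 moved by less than 1 SD of IMOK. The exceptions came with a pseudocount of 5 CPM, where the shifts were -0.48 at passage 2, -0.50 at passage 4, -0.55 at passage 10 and -0.47 at passage 25 in progenitor medium and -0.61 at passage 25 in differentiating medium. Windows wholly below IMOK made up 86.7% to 100% of windows under each of 21 alternatives and windows above 0%. With at least 2-fold change, 85 members were called lower in mSGc, among 716 of all 12885 genes tested. Leaving out 1 library gave 82 to 210 lower and 6 to 16 higher members, and 0 to 3 lower and 0 to 3 higher for passage, and 0 to 1 lower and 0 to 1 higher for medium. The highest counts for passage and medium came without passage 10 in progenitor medium, and the lowest for the line without IMOK replicate 2. Over all 12455 genes tested without that mSGc library, 250 were lower and 79 higher for passage, and 6 lower and 52 higher for medium. Over all 13156 genes tested without IMOK replicate 2, 461 were lower and 277 higher. For passage, DESeq2 called 14 lower and 6 higher members, among 579 lower and 121 higher of all 12451 genes tested. No filter on low counts gave 2 lower members, among 142 of 17402 genes. Untransformed passage number gave 5 lower, among 112 of 12451, and a minimum of 10 counts in every library 0 higher, among 0 of 10670. For medium, DESeq2 called 6 lower and 7 higher members, among 78 lower and 193 higher of all 12451 genes tested. No filter gave 1 lower and 2 higher, among 2 and 34 of 17402 genes. Passages 10 and 25 with passage as a block also gave 1 lower and 2 higher, among 33 and 90 of 11938 genes. The causes were not tested. Without TMM factors, 288 members were called lower, among 1371 of all genes tested. The median fold change of other genes then moved from 0.032 to -0.074. Replicate numbers of mSGc only name libraries and pair nothing with IMOK. Depth limits members near 3 counts, or 0.163 to 0.481 CPM per library.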
